A study of Mus musculus with 4 samples.

Results

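The genes of cholesterol and fatty acid synthesis were examined in growth factor-dependent murine cells that had lost Abl1 and were then weaned off IL-3. The set held 29 genes, chosen by name: 7 of the mevalonate steps, 11 of the sterol branch, 6 of fatty acid synthesis, 4 that regulate the sterol response, and Stard4, which carries sterol inside the cell. All 29 were found by symbol among the 23756 genes of the table, and 28 of the 29 were counted often enough to be tested among 16535 genes. RNA-seq of ribosome-depleted total RNA was available from 4 libraries of 32Dcl3 cells (32D in the labels), a line of hematopoietic cells from mouse bone marrow that needs interleukin-3 (IL-3) to grow. All 4 libraries carried the same genotype, an Abl1 knockout made with CRISPR/Cas9, and no library with intact Abl1 was analysed here, so no value below measures the effect of losing Abl1. The 2 libraries Abl1ko/IL3+ came from knockout cells kept with IL-3, and the 2 libraries Abl1ko/IL3- from knockout cells growing without it. The study calls the latter IL-3-independent. In its survival experiment IL-3 was withdrawn gradually, and only knockout populations gave rise to cells that grew without it. The knockout was made with 2 guide RNAs, single cell clones were taken, and nothing in the sources used here ties a library to a guide or clone. Differences between clones, the outgrowth of IL-3-independent cells and the effect of IL-3 therefore cannot be told apart. The libraries are given as biological duplicates, but separate cultures are not described, so the p-values below measure only the spread between these libraries.

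Each library held between 48953174 and 60382588 reads counted to genes, and levels are given as CPM, read counts scaled to one common total, after TMM scaling, a correction for differences in library composition. At this depth 3 counts corresponded to between 0.0465 and 0.0626 CPM, and the 28 tested members had between 69 and 20405 counts in any library. Abl1 itself was read at 20.5 and 40.8 CPM with IL-3 and at 32.2 and 38.8 CPM without it; an edit that leaves the transcript in place is not visible in gene counts, so these values check no label. The labels call the cells pre-B cells. The 6 pre-B markers in the table summed to 18.98 and 26.0 CPM with IL-3 and to 20.1 and 19.1 CPM without it, mostly from Cd79b, a subunit of the B cell receptor, at 16.2, 11.2, 14.4 and 15.1 CPM and, in Abl1ko/IL3+ replicate 2, from Cd79a at 11.7 CPM. The recombinase gene Rag1 was counted 4 times in 1 library and 0 times in the others. The 5 early myeloid markers summed to 2521, 2502, 1662 and 1124 CPM, with Mpo, an enzyme of early myeloid granules, at 1878, 1476, 908 and 499 CPM. This sum was above the pre-B sum in every library, so these markers do not bear out the pre-B label. The libraries of one group also differed from each other in their cell type markers. The sum over 5 erythroid markers was 183.6 and 7080 CPM with IL-3 and 3459 and 1681 CPM without it, and the sum over 9 granulocyte markers was 805.5 and 295.9 CPM against 945.2 and 5364 CPM. In bulk RNA, fewer cells of a type and less RNA per cell cannot be told apart.

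Cells build cholesterol from acetyl-CoA through the mevalonate pathway, which ends in farnesyl diphosphate, and then through squalene, lanosterol and a series of sterol intermediates. Fatty acids are built from the same acetyl-CoA by carboxylation, chain assembly, elongation and desaturation. Both pathways are driven by the sterol regulatory element-binding proteins SREBP1 and SREBP2, which SCAP escorts from the endoplasmic reticulum when sterol is low and which INSIG proteins hold back when sterol is high. Growing blood cells use these routes for membranes and for the lipid anchors of signaling proteins.

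Most members were read lower without IL-3, but only Hmgcs1 and Fdft1 had an unadjusted p under 0.05 in edgeR with all libraries. Neither passed the adjusted threshold in edgeR. The median log2 fold change over the 28 tested members was -0.39 (without IL-3 against with IL-3), with 24 members below 0 and 4 above. Over all 16535 genes tested the median was -0.03, with 8589 genes below 0 and 7946 above. By the quasi-likelihood F test of edgeR, adjusted over all genes by the Benjamini-Hochberg method, 0 members passed an adjusted p of 0.05, as did 0.0% of all genes, and the lowest adjusted p of a member was 0.692. At an unadjusted p under 0.05, 2 of 28 members were lower without IL-3, against 3.36% of all genes, and 0 of 28 were higher, against 2.56%. With Abl1ko/IL3+ replicate 1 left out the members at an unadjusted p under 0.05 numbered 8, of which Hsd17b7 was higher without IL-3, while the share of all genes rose from 5.91% to 15.7%. With Abl1ko/IL3+ replicate 2 left out they numbered 2, against 17.8% of all genes. With either library without IL-3 left out they numbered 3, against 3.24% and 4.60% of all genes. DESeq2's Wald test on the same counts called 271 genes, where edgeR called 0 and had 978 at an unadjusted p under 0.05. It called 2 of 28 members lower at an adjusted p under 0.05, again Hmgcs1 and Fdft1, against 0.968% of all genes, and 0 of 28 higher, against 0.671%. Both libraries without IL-3 lay below both libraries with IL-3 in 8 of 28 members, against 17.9% of all genes. These were Hmgcs1, Fdft1, Nsdhl, Dhcr7, Elovl6, Srebf1, Srebf2 and Insig1. The opposite order, with both libraries without IL-3 above, was seen in 0 of 28 members, against 19.4% of all genes. On CPM without TMM scaling and on FPKM the lower count was again 8, with Scap in place of Elovl6, and Tm7sf2 then lay above in both libraries without IL-3.

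**Figure D1:**
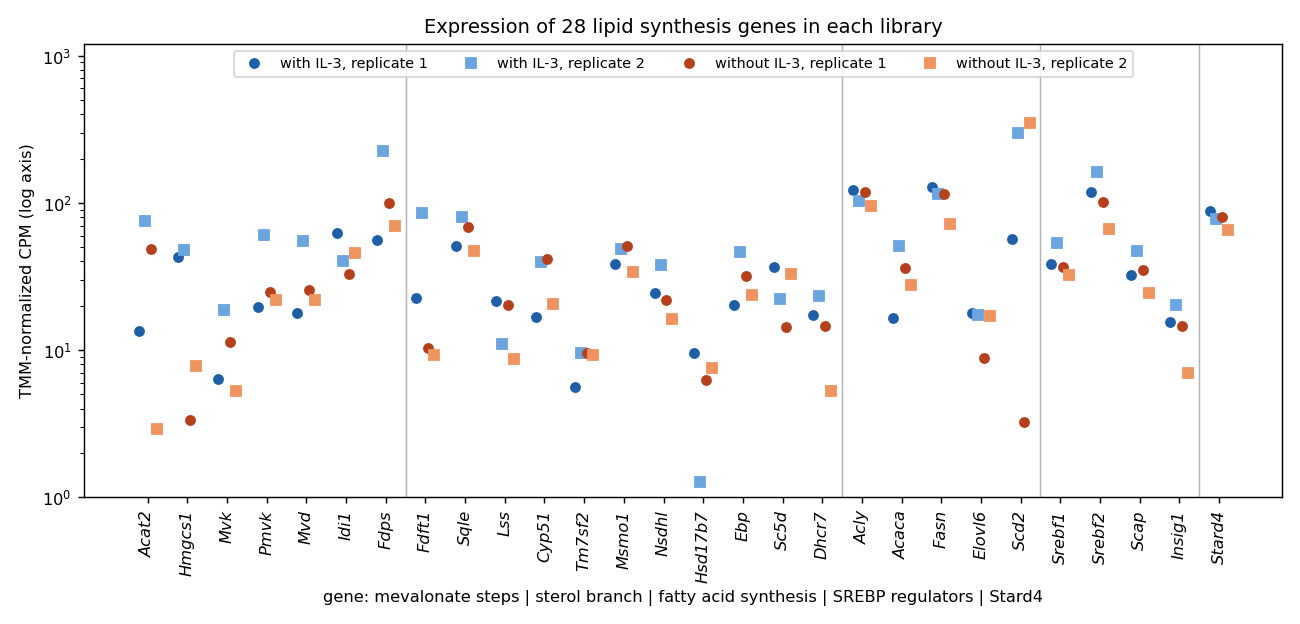
Level of each of the 28 tested genes in each library (TMM-normalized CPM, log axis), ordered by pathway step, with circles for replicate 1 and squares for replicate 2 and blue for cells with IL-3 and red or orange for cells without it. Hmgcs1 and Fdft1 had both libraries without IL-3 well below both libraries with it, while Acat2 and Scd2 spread widely within each group.

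The median of the members moved with single libraries. It was -0.66 without Abl1ko/IL3+ replicate 1 and -0.17 without Abl1ko/IL3+ replicate 2, with 24 and 16 members below 0. It was -0.60 without Abl1ko/IL3- replicate 1 and -0.23 without Abl1ko/IL3- replicate 2, with 24 and 19 members below 0. The median over all genes in these fits ran from -0.042 to 0.062. How many of all genes lay below 0 in them was not counted. The highest of the 4 libraries was Abl1ko/IL3+ replicate 2 in 17 of 28 members, against 28.3% of all genes, and the lowest was Abl1ko/IL3- replicate 2 in 15 of 28, against 14.5%. The granulocyte markers were highest in that last library, and 5 of the 8 tested lay higher in both libraries without IL-3. Their part in the levels of the members was not tested. In 19 of 28 members the libraries with IL-3 were further apart on the log2 scale than the group means were, against 65.6% of all genes. The members named in the next paragraphs are therefore given library by library, with replicate 1 before replicate 2.

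Hmgcs1, which encodes the cytosolic synthase that makes HMG-CoA for the mevalonate pathway, was the member furthest below its level with IL-3. It was read at 42.8 and 48.0 CPM with IL-3 and at 3.34 and 7.78 CPM without IL-3 (counts of 2760, 2613, 160 and 452). The groups did not overlap, and the lower library with IL-3 was 5.50-fold above the higher library without it. The mean was 45.4 ± 3.71 CPM (SD, n = 2) with IL-3 and 5.56 ± 3.14 CPM (SD, n = 2) without it, an 8.16-fold difference of the means. The fitted log2 fold change was -3.03 with an SE of 0.55 (edgeR unadjusted p = 0.00265, adjusted p = 0.692; DESeq2 adjusted p = 6.43e-05). With each library left out in turn it ran from -3.76 to -2.54, so no single library set its direction. Hmgcs1 lies at chr13:119690379-119708260 (GRCm38, plus strand), and the antisense gene Gm48342, which overlaps it, had 7 counts in 1 library and 0 in the others. The next gene on the chromosome, Nim1k, is a kinase gene on the other strand whose nearer end lies 1833 bases past the end of Hmgcs1. It was looked up after the Hmgcs1 values were seen. Nim1k was read at 24.5 and 7.83 CPM with IL-3 and 1.90 and 1.77 CPM without it (log2 fold change -3.13 with an SE of 0.70, edgeR adjusted p = 0.727). Zfp131, which lies further along, was read at 38.0 and 2.08 CPM with IL-3 and 3.24 and 41.8 CPM without it (0.17, SE 1.60).

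The promoter of Hmgcs1 is shown because it is the promoter of the member with the lowest p and the only one among the members that held a match to the sterol regulatory element searched for, TCACNCCAC, the sequence class bound by SREBPs. The window runs from 250 bases before to 50 bases after the RefSeq start (GRCm38.p6, chr13:119690101-119690400, plus strand), and capitals mark matches on either strand to TCACNCCAC, to the CCAAT box (CCAAT), to the GC box (GGGCGG) and to the E-box CACGTG; no base was shared by matches to different motifs.
Hmgcs1: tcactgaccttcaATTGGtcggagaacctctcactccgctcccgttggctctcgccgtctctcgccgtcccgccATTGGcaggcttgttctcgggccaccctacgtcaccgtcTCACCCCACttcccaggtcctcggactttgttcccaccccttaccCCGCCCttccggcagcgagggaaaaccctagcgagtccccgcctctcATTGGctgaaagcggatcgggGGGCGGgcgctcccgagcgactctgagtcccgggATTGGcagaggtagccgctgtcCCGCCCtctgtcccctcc
The match, TCACCCCAC, begins at position -137 from the transcript start and is accompanied by 4 CCAAT boxes and 3 GC boxes. Promoter windows were present for 23 of the 29 members; those of Scd1, Scd2, Fdps, Stard4, Sqle and Fdft1 were not analysed here. The letters TCACNCCAC were found in 1 of 23 members (4.35%) and in 1.41% of the 10320 tested genes with a window. Sterol elements that differ from these letters were not searched for, so these shares do not cover them. The CCAAT box was found in 19 of 23 (82.6%) against 42.6%, the GC box in 19 of 23 (82.6%) against 64.7%, and the E-box in 5 of 23 (21.7%) against 11.2%. A match describes letters in this window and does not show that a factor binds there.

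Fdft1, the squalene synthase that commits farnesyl diphosphate to sterols, was the other member with an unadjusted p under 0.05 in edgeR. It was read at 22.4 and 85.9 CPM with IL-3 and at 10.3 and 9.25 CPM without it. The libraries without IL-3 were close to each other and below both others. The gap between the groups was 2.175-fold, smaller than the 3.83-fold difference between the libraries with IL-3. The fitted log2 fold change was -2.47 with an SE of 0.71 (edgeR unadjusted p = 0.018, adjusted p = 0.729; DESeq2 adjusted p = 0.0445). It was -1.20 without Abl1ko/IL3+ replicate 2 and -3.12 without Abl1ko/IL3+ replicate 1. Fdft1 (chr14:63145150-63179578, minus strand) overlaps Ctsb, a lysosomal protease gene on the other strand, and whether reads were counted by strand is not stated in the sources used here, so reads in the shared bases could belong to either gene. Ctsb was read at 294 and 179 CPM with IL-3 and 175 and 207.5 CPM without it, with a log2 fold change of -0.31.

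The other 6 genes of the mevalonate steps did not pass the test, and Abl1ko/IL3+ replicate 2 was the highest library in 5 of the 6. All 7 had a fitted log2 fold change below 0 (median -0.72). Fdps, which makes farnesyl diphosphate, was read at 56.3 and 225 CPM with IL-3 and at 100.4 and 70.1 CPM without it. Pmvk, the kinase that forms mevalonate diphosphate, was read at 19.7 and 61.0 CPM against 24.7 and 21.8 CPM. Mvd, which decarboxylates that product, was read at 17.9 and 55.4 CPM against 25.7 and 21.8 CPM. In all 3 genes, replicate 2 with IL-3 was above every other library and replicate 1 with IL-3 was below every other library. Mvk, mevalonate kinase, was read at 6.39 and 18.8 CPM with IL-3 and at 11.3 and 5.29 CPM without it. Acat2, the cytosolic thiolase that joins acetyl-CoA units, was read at 13.5 and 75.7 CPM with IL-3 and at 48.4 and 2.93 CPM without it, a 25.9-fold range over libraries. Both were highest in replicate 2 with IL-3 and lowest in replicate 2 without IL-3, with overlapping groups. Fdps shares its strand and some bases with Gm43738, which had 121 counts in Abl1ko/IL3- replicate 1 and 0 in the other libraries. Idi1, the isomerase that makes the allylic building block, went the other way between the libraries with IL-3, at 62.3 and 40.5 CPM against 32.8 and 45.8 CPM.

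The excess of Abl1ko/IL3+ replicate 2 over its replicate was widespread among the members. It was at least 2 times replicate 1 in 10 of 28 members, against 18.6% of all genes, while replicate 1 was at least 2 times replicate 2 in 1 of 28, Hsd17b7, against 21.4%. The 10 were Acat2, Mvk, Pmvk, Mvd, Fdps, Fdft1, Cyp51, Ebp, Acaca and Scd2. Summed over the 18 enzymes of the mevalonate steps and sterol branch, the level was 482.7 and 930.7 CPM with IL-3 and 537.5 and 389.8 CPM without it, so replicate 1 with IL-3 lay between the libraries without IL-3. Erythroid markers were high in the same library (the sums given above), and 12 proliferation genes summed to 1713 and 3406 CPM with IL-3 and 2525 and 2045 CPM without it. All 5 tested erythroid markers and 6 of 12 proliferation genes were at least 2 times higher in Abl1ko/IL3+ replicate 2 than in replicate 1. Their part in the levels of the synthesis genes was not tested.

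**Figure D2:**
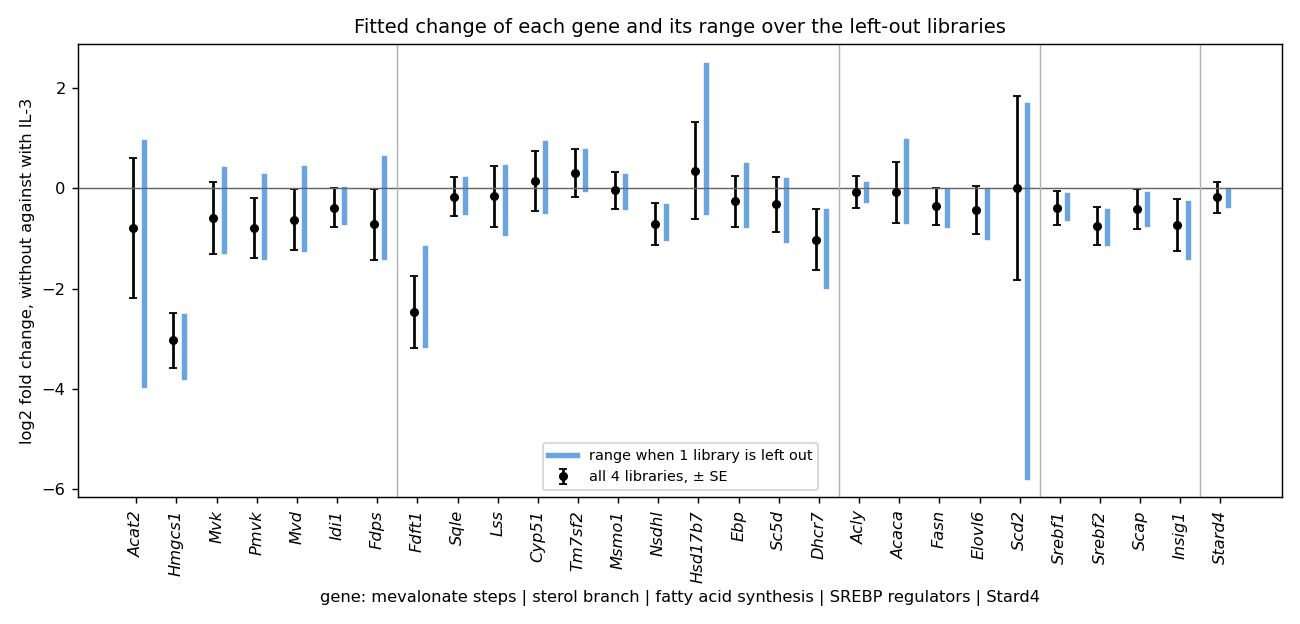
Fitted log2 fold change of each tested gene, without against with IL-3 (black points with ± 1 SE, edgeR, all 4 libraries), beside the range of the same value when each library was left out in turn (blue bars). Hmgcs1 and Fdft1 stay far below 0, whereas the blue bars of Acat2 and Scd2 cross 0 and are the longest.

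Of the 11 enzymes of the sterol branch, Fdft1, Nsdhl and Dhcr7 had groups that did not overlap, and the other 8 had groups that did. The 11 genes had a median log2 fold change of -0.17, and 8 were below 0 and 3 above. Sqle, the squalene epoxidase that is a rate-limiting step of the branch, was read at 51.0 and 79.6 CPM with IL-3 and at 69.1 and 47.1 CPM without it (log2 fold change -0.17, SE 0.40). Msmo1, which removes methyl groups from the sterol ring, was read at 38.3 and 48.9 CPM against 51.0 and 33.8 CPM (-0.04, SE 0.37). Cyp51, the lanosterol demethylase, was read at 16.7 and 39.7 CPM against 41.5 and 20.6 CPM (0.14, SE 0.60). For these 3 genes the groups overlapped, and the fitted change was smaller than its error. Ebp, a sterol isomerase, was read at 20.3 and 46.6 CPM against 32.0 and 23.8 CPM, and Sc5d, a sterol desaturase, at 36.7 and 22.2 CPM against 14.4 and 32.8 CPM. Lss, the cyclase that makes lanosterol, followed the replicate number rather than IL-3, at 21.5 and 11.0 CPM against 20.3 and 8.71 CPM. Tm7sf2, a sterol reductase, was read at 5.64 and 9.63 CPM against 9.61 and 9.21 CPM (0.30, SE 0.47), and Hsd17b7, a sterol ketone reductase, at 9.55 and 1.27 CPM against 6.22 and 7.58 CPM (0.35, SE 0.96). In both of these 1 library with IL-3 stood below the other 3, replicate 1 for Tm7sf2 and replicate 2 for Hsd17b7. The log2 fold change of Hsd17b7 was 2.46 without Abl1ko/IL3+ replicate 1 and -0.47 without Abl1ko/IL3+ replicate 2. Cyp51 overlaps Akap9 on the other strand and Tm7sf2 overlaps Vps51 on the same strand, so reads in the shared bases are uncertain for these genes.

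Nsdhl, a sterol dehydrogenase, and Dhcr7, a reductase of the late sterol steps, were the remaining sterol enzymes whose groups did not overlap. Nsdhl was read at 24.3 and 38.0 CPM with IL-3 and at 21.8 and 16.2 CPM without it, with a log2 fold change of -0.71 and an SE of 0.41 (edgeR adjusted p = 0.880). Dhcr7, which makes cholesterol from its last precursor, was read at 17.3 and 23.3 CPM with IL-3 and at 14.6 and 5.25 CPM without it, with a log2 fold change of -1.03 and an SE of 0.61 (edgeR adjusted p = 0.885). In each, the gap between the groups, 1.12-fold for Nsdhl and 1.18-fold for Dhcr7, was smaller than the difference between replicates of either group. For Dhcr7 the value was -1.95 without Abl1ko/IL3- replicate 1 and -0.46 without Abl1ko/IL3- replicate 2.

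The genes of fatty acid synthesis did not pass the test, and most of their fitted changes were small beside their errors. Of the 5 tested, 4 were below 0 and 1 above, Scd2 at 0.0014 with an SE of 1.83, and the median log2 fold change was -0.08. Acly, which makes cytosolic acetyl-CoA from citrate, was read at 122 and 103 CPM with IL-3 and at 118 and 95.0 CPM without it (log2 fold change -0.08, SE 0.32). Fasn, the fatty acid synthase, was read at 127 and 115 CPM against 115 and 72.4 CPM (-0.37, SE 0.36). These were among the more even members, and only replicate 2 without IL-3 was lower for Fasn. Acaca, the acetyl-CoA carboxylase that starts the pathway, was read at 16.5 and 51.0 CPM against 36.2 and 27.5 CPM, with both libraries without IL-3 between those with it. Elovl6, an elongase of long-chain fatty acids, was read at 17.96 and 17.2 CPM against 8.85 and 17.2 CPM, so that only replicate 1 without IL-3 was low and its place among the 8 genes without overlap rested on a difference in the decimals (17.19 against 17.15 CPM).

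Scd2 had the widest range over libraries of the 28 tested members. Scd2, a stearoyl-CoA desaturase that makes monounsaturated fatty acids, was read at 56.6 and 298 CPM with IL-3 and at 3.26 and 351 CPM without it. This was a 108-fold range with no order by group, and the fitted log2 fold change was 0.0014 with an SE of 1.83. Without Abl1ko/IL3- replicate 2 it was -5.75, and without Abl1ko/IL3+ replicate 2 it was 1.65. The libraries without IL-3 were at least 10 times apart in 2 of 28 members, Acat2 and Scd2, against 4.15% of all genes, and in opposite directions: Acat2 was higher in replicate 1 and Scd2 in replicate 2. Scd1, which encodes a related desaturase, was the member not tested, with 6 and 4 counts with IL-3 and 0 and 0 without it. These counts correspond to 0.093 and 0.0735 CPM with IL-3, at least 1.17-fold higher than the 3-count floor of either library without IL-3. Scd3, a neighboring desaturase gene outside the set, was read at 34.1 and 5.24 CPM with IL-3 and 18.5 and 39.8 CPM without it. Near-identical stretches of these paralogs could split reads between them.

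The regulators of the sterol response did not pass the test. All 4 had a fitted log2 fold change below 0, with a median of -0.58, and 3 of the 4 had both libraries without IL-3 below both with it, against 17.9% of all genes. The gap between the groups was 1.17-fold for Srebf2, 1.06-fold for Insig1 and 1.03-fold for Srebf1. Srebf2, which encodes SREBP2, the factor that drives sterol genes, was read at 119 and 163 CPM with IL-3 and at 101 and 66.2 CPM without it. Its log2 fold change was -0.75 with an SE of 0.38 (edgeR adjusted p = 0.865), running from -1.09 to -0.465 with each library left out in turn. Insig1, which holds the SREBP escort back and is itself an SREBP target, was read at 15.4 and 20.4 CPM with IL-3 and at 14.5 and 6.94 CPM without it (-0.74, SE 0.51, edgeR adjusted p = 0.901). In both genes replicate 2 was the high library with IL-3 and the low library without it, and the replicate 1 libraries of the groups were closer to each other. Srebf1, which encodes SREBP1, was read at 38.2 and 53.0 CPM against 37.0 and 32.2 CPM (-0.40, SE 0.34), and Scap, the escort itself, at 32.2 and 47.3 CPM against 35.0 and 24.4 CPM (-0.42, SE 0.39). Scap was the regulator whose groups overlapped. Srebf1 overlaps Rai1 on the other strand, and Rai1 was read at 36.5 and 31.2 CPM with IL-3 and 29.4 and 21.3 CPM without it. Stard4, a sterol carrier protein, was among the most even members, at 87.5 and 77.8 CPM against 79.6 and 65.8 CPM (-0.19, SE 0.31).

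Promoters of 3 further members with groups that did not overlap are shown to set beside that of Hmgcs1: the regulators Srebf2 (chr15:82147019-82147318, plus strand) and Insig1 (chr5:28071162-28071461, plus strand) and the sterol enzyme Nsdhl (chrX:72918271-72918570, plus strand), all GRCm38.p6 from RefSeq with the same capitals.
Srebf2: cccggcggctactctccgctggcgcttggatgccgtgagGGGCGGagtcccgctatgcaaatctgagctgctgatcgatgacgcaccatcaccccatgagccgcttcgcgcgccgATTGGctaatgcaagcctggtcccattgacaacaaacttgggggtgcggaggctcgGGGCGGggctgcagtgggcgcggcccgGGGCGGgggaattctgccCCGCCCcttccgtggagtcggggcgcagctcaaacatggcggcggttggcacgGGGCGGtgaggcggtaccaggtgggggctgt
Insig1: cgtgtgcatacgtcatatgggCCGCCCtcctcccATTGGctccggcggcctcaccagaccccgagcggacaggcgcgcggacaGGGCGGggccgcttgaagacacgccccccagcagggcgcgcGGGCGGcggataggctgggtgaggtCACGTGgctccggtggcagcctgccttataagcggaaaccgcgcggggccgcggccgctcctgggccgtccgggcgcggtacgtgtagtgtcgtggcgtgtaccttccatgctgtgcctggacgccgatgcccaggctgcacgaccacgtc
Nsdhl: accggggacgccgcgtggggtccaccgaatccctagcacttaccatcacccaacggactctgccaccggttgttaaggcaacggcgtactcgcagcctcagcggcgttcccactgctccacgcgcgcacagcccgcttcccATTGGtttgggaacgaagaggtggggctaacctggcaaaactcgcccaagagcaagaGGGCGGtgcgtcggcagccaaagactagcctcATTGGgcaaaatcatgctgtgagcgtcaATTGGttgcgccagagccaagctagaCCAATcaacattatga
None of the 3 held the letters TCACNCCAC. Srebf2 had 1 CCAAT box and 5 GC boxes, Insig1 had 1 CCAAT box, 3 GC boxes and 1 E-box, and Nsdhl had 4 CCAAT boxes and 1 GC box. Nsdhl and Hmgcs1 had the same number of CCAAT boxes, and their fitted log2 fold changes were -0.71 and -3.03. Whether the number of boxes bears on the fold change was not tested.

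**Figure D3:**
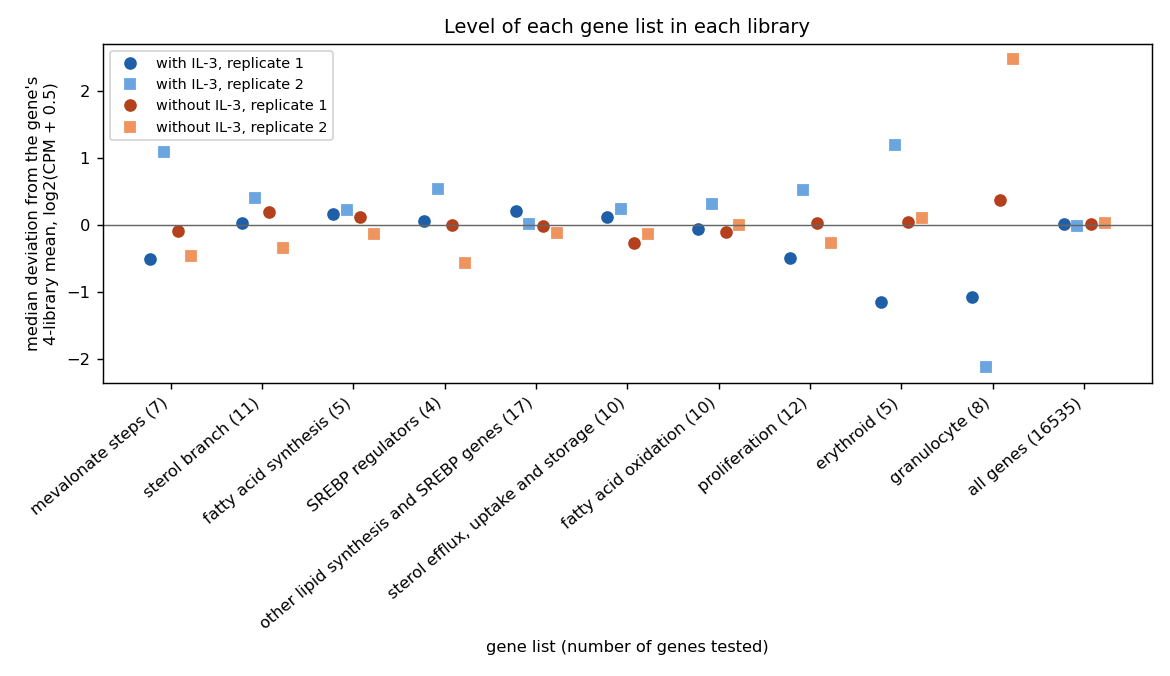
Median over each gene list of the deviation of log2(CPM + 0.5) from the gene's mean over the 4 libraries, with blue symbols for libraries with IL-3 and red or orange for those without it; the number of genes tested is in brackets. Replicate 2 with IL-3 is the highest library for every list except the other lipid synthesis and SREBP genes, the granulocyte markers and all genes. Its deviation is smallest among those lists for fatty acid synthesis (0.215) and largest for the erythroid markers (1.19). The median of all genes is near 0 in every library.

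Compared per length, in the deposited FPKM values, the members differed widely in level. The highest means with IL-3 were those of Fdps at 27.9 ± 21.2 FPKM and Scd2 at 26.8 ± 23.8 FPKM (SD, n = 2 each), followed by Pmvk at 19.8 ± 12.4, Acly at 18.9 ± 4.65 and Srebf2 at 17.1 ± 1.58 FPKM. Given these SDs, the order of these 5 is not resolved. Hmgcs1 stood at 8.67 ± 0.408 FPKM with IL-3 and at 1.09 ± 0.669 FPKM without it. The lowest members with IL-3 were Scd1 at 0.0141, Hsd17b7 at 0.995 and Lss at 1.36 FPKM.

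Genes that move sterol out of or into the cell or store it were set beside the synthesis genes, and none passed the adjusted threshold. Of 14 listed genes 10 were tested. Their median log2 fold change was -0.45, and 6 of the 10 lay lower in both libraries without IL-3 while 2 lay higher, against 17.9% and 19.4% of all genes. At an unadjusted p under 0.05 3 of the 10 were lower and 0 higher, against 3.36% and 2.56% of all genes. Abcg1, a cholesterol exporter, was read at 111 and 126 CPM with IL-3 and at 45.5 and 56.3 CPM without it. Its log2 fold change was -1.21 with an SE of 0.32 (edgeR unadjusted p = 0.0124, adjusted p = 0.727). Lpcat3, an enzyme that remodels phospholipids, was read at 101 and 122 CPM against 46.5 and 53.1 CPM (-1.16, SE 0.31, edgeR adjusted p = 0.727). The groups did not overlap in either gene, and the ranges with each library left out were -1.37 to -1.07 for Abcg1 and -1.27 to -1.02 for Lpcat3. Mylip, the ligase that marks the LDL receptor for breakdown, was read at 47.1 and 17.5 CPM against 9.71 and 8.02 CPM (-1.87, SE 0.59, edgeR adjusted p = 0.772). Abcg1, Lpcat3 and Mylip are known targets of the oxysterol receptors LXR. Whether LXR had a part in these levels was not tested. Of the LXR genes, Nr1h2 was read at 68.3 and 74.4 CPM with IL-3 and 65.0 and 61.2 CPM without it, while Nr1h3 had between 0 and 26 counts in any library. Lrp8, a lipoprotein receptor, was read at 14.4 and 14.96 CPM against 21.3 and 36.7 CPM, higher in both libraries without IL-3 (0.98, SE 0.42, edgeR adjusted p = 0.854). Scarb1, a receptor for high-density lipoprotein, was read at 14.8 and 16.1 CPM against 8.02 and 9.02 CPM.

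**Figure D4:**
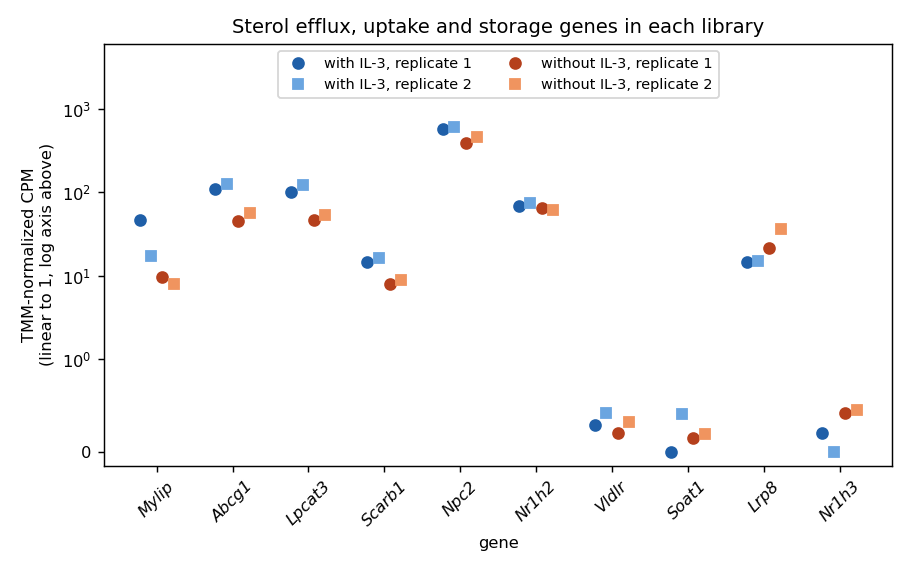
Level of each of the 10 tested genes of sterol efflux, uptake and storage in each library (TMM-normalized CPM, linear up to 1 and logarithmic above). Mylip, Abcg1, Lpcat3, Scarb1, Npc2 and Nr1h2 lie lower in both libraries without IL-3, and Lrp8 and Nr1h3 lie higher.

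Other genes of lipid metabolism were also read, and 0 passed the adjusted threshold. Of 17 further genes of lipid synthesis and SREBP processing, 4 lay lower and 1 higher in both libraries without IL-3 (17.9% and 19.4% of all genes), and 0 had an unadjusted p under 0.05. Their median log2 fold change was -0.14. Fads2, a desaturase of polyunsaturated fatty acids, was read at 51.3 and 151 CPM with IL-3 and 45.3 and 33.1 CPM without it. Abl1ko/IL3+ replicate 2 was its highest library, as in Fdps, Pmvk and Mvd, but unlike in those genes its groups did not overlap. Lpin1, a phosphatidate phosphatase, was high in 1 library alone, at 72.4 and 2.43 CPM against 2.13 and 6.89 CPM, and its log2 fold change of -3.05 became 0.91 without that library, Abl1ko/IL3+ replicate 1. Acsl4, an acyl-CoA synthetase, had the highest value of that list, 0.77, and was low in 1 library alone, at 47.1 and 3.92 CPM against 38.4 and 48.3 CPM. Among 10 tested genes of fatty acid oxidation the median was -0.16, with 2 lower and 2 higher in both libraries without IL-3, near those shares of all genes. Hadhb, the beta subunit of the mitochondrial trifunctional protein, was read at 85.6 and 90.1 CPM against 33.4 and 40.4 CPM (-1.25, SE 0.31, edgeR unadjusted p = 0.0101, adjusted p = 0.727), and its partner Hadha at 187 and 249 CPM against 143 and 131 CPM (-0.67, SE 0.33, edgeR adjusted p = 0.860). The highest value of that list was that of Slc25a20, the mitochondrial acylcarnitine carrier, at 0.27 with an SE of 0.30. The 12 proliferation genes had a median of -0.24, with 3 lower in both libraries without IL-3 and 0 higher, against the same shares. They ranged from -0.76 for Mcm3, of the replicative helicase, to 0.38 for Mki67.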

How the data were processed

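Gene-level values of 4 RNA-seq libraries were used, 2 per group, grouped by the titles. Per the methods of the study, Illumina reads were aligned to GRCm38 with Rsubread and counted with featureCounts; the submitters' processing notes also name STAR, Cuffdiff and mm10, and the strand setting is not given in the sources used here. The deposited counts are raw reads per gene. The FPKM values were computed by the authors by gene length and sequencing depth and served for levels between genes and for an alternative.

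Genes passing filterByExpr (edgeR 4.0.16, R 4.3.3) were scaled by TMM (factors 0.901 to 1.08) and tested with glmQLFit and glmQLFTest, without against with IL-3, with Benjamini-Hochberg adjustment over all genes tested and a threshold of 0.05. The SE of an edgeR log2 fold change was computed as its absolute value divided by the square root of the F statistic. Reads counted per library came to 59659395 and 60382588 (Abl1ko/IL3+) and to 48953174 and 55320279 (Abl1ko/IL3-). Floors are 3 counts per library and cover counting error only. Alternatives were DESeq2 1.42.0, library size scaling alone, no filter, 10 counts in every library, the replicate number as a block, limma 3.58.1 on log2(FPKM + 1) and log2(FPKM + 0.1), and each library left out. Crossed replicate numbers, and group order on CPM without TMM and on FPKM, were added after seeing the data. Named genes were the members, Abl1, and from related lists those with an unadjusted p under 0.05 or the highest or lowest fold change. Other named genes (Nim1k, Zfp131, Scd3, overlapping genes, Fads2, Hadha, Scarb1, Lrp8, Nr1h2 and the single markers) were chosen after their values were seen. The members and lists were chosen with earlier results of these data known. Markers of macrophages, mast cells and T cells were also summed: in Abl1ko/IL3+ 331 and 59.9, 1222 and 215, and 0.419 and 0.11 CPM, and in Abl1ko/IL3- 101 and 219, 392 and 308, and 0.919 and 2.38 CPM.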

Additional observations from a re-analysis of the deposited data

How the results depend on the processing

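Of the 28 tested members, 12 kept the sign of their log2 fold change under all 12 alternatives, and 16 changed it under at least 1. Among the 12 were Hmgcs1, Fdft1, Nsdhl, Dhcr7, Srebf1, Srebf2, Scap and Insig1. How many of all genes kept their sign was not counted. The number of genes past the adjusted threshold was 0 with edgeR, 271 with DESeq2 and 0 to 15 with each library left out, the 15 without Abl1ko/IL3- replicate 1. The number of members past it was 0, and 2 with DESeq2, where Hmgcs1 (-3.03) and Fdft1 (-2.47) passed. The number of members at an unadjusted p under 0.05 was 2, and 2 to 8 with each library left out, the 8 without Abl1ko/IL3+ replicate 1, where 2604 of 16535 genes (15.7%) reached it against 978 with all libraries. The median of the members ran from -0.659 to -0.17 with each library left out. The ranges of the log2 fold change with each library left out, for the members whose sign turned, were Acat2 (-3.93 to 0.927), Mvk (-1.25 to 0.379), Pmvk (-1.37 to 0.238), Mvd (-1.21 to 0.407), Fdps (-1.38 to 0.6), Sqle (-0.472 to 0.188), Lss (-0.9 to 0.411), Cyp51 (-0.451 to 0.893), Tm7sf2 (-0.0182 to 0.737), Msmo1 (-0.369 to 0.235), Hsd17b7 (-0.469 to 2.46), Ebp (-0.726 to 0.457), Sc5d (-1.03 to 0.154), Acly (-0.244 to 0.0738), Acaca (-0.662 to 0.947), Scd2 (-5.75 to 1.65). Acaca was also above 0 with library size alone (0.0116), the replicate block (0.12), limma on log2(FPKM + 1) (0.0491) and log2(FPKM + 0.1) (0.123) and the crossed pairing (0.12). Scd2 was below 0 with DESeq2 (-0.00759), no filter (-0.000429), the replicate block (-1.92), limma on log2(FPKM + 1) (-1.21) and log2(FPKM + 0.1) (-1.80) and the crossed pairing (-1.90). The cause of these changes was not tested. Libraries with the same replicate number deviated from their group means with a correlation of -0.194 across genes. With 2 libraries per group this value cannot tell whether they share a clone, guide or batch. With the replicate block 0 genes and 0 members passed the adjusted threshold, the lowest adjusted p was 0.372, 548 genes against 978 had an unadjusted p under 0.05, and the median of the members was -0.408. With the numbers crossed 0 genes passed it and 1136 had an unadjusted p under 0.05. With 2 libraries per group, differences as small as those of most members could not be separated from the spread. Only Scd1 was not tested, because its counts were too low (6 and 4 with IL-3, 0 and 0 without it). The genotype, the clones and the cell type markers limit what the comparison of groups can be tied to.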
